A study of Mus musculus with 21 samples.

Results

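Expression of the chemokines and receptors that guide monocytes was followed in the right lung of mice whose left lung had been removed. The 9 genes were the chemokines Ccl2, Ccl7, Ccl12, Ccl8, Ccl3 and Ccl4, the receptors Ccr2 and Cx3cr1, and Ly6c2, a surface marker of classical monocytes. They were chosen by symbol, and the rule used no measured value, but earlier results of these data were known when the genes were chosen. Of these 9, 8 had a probe set of their own, 1 each, among the 19938 genes measured. The 2 probe sets that name Ly6c2 also name its close relative Ly6c1, so no value is given for Ly6c2 and "members" below means the other 8.

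RNA came from male C57BL/6 mice and was hybridised to 21 Affymetrix arrays. Unoperated mice at day 0 were the baseline, and 5 conditions followed left pneumonectomy (removal of the left lung) at days 3, 7, 14, 28 and 56. The remaining condition was a sham operation examined at day 56, so days 3 and 7 have no sham operation of their own day. The 7 conditions had 3 arrays each (n = 3), taken from the medial lobe, from the cardiac lobe and from the right lung as a whole. The labels used here state no age, nor whether the regions of a condition shared animals or pools. The p-values therefore measure how far changes differed between regions, and with 3 arrays a condition their precision is low. Part of that spread may be technical.

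Monocytes leave the bone marrow and the blood along gradients of CC chemokines. Ccr2 is the receptor through which classical monocytes answer Ccl2, Ccl7 and, in mouse, Ccl12. Mouse Ccl8 belongs to the same monocyte chemoattractant protein family but is described as acting mainly on Ccr8, whereas human CCL8 also binds other CC receptors. Ccl3 and Ccl4 are macrophage inflammatory proteins that attract monocytes and other leukocytes, and Ccl3 acts on Ccr1 among other receptors. Cx3cr1, the receptor of fractalkine (Cx3cl1), marks patrolling non-classical monocytes and is also carried by other myeloid and lymphoid cells. In the lung, recruited monocytes can give rise to interstitial and alveolar macrophages.

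The 4 monocyte chemoattractant genes lie in one cluster on mouse chromosome 11 in the order Ccl2, Ccl7, Ccl12, Ccl8, with Ccl11 between Ccl7 and Ccl12. Ccl3 and Ccl4 are neighbours further along that chromosome, and both receptors are on chromosome 9. Promoter windows from RefSeq (assembly GRCm38.p6) were at hand for 5 members, namely Ccl12, Ccl8, Ccl3, Ccr2 and Cx3cr1. The 250 bases before the transcription start are shown for the neighbouring pair Ccl12 and Ccl8 and for Ccl3 and Ccr2, which rose at day 3. Capitals mark TATAAA, the core of a TATA box.
Ccl12, chr11:82101595-82101844, forward strand: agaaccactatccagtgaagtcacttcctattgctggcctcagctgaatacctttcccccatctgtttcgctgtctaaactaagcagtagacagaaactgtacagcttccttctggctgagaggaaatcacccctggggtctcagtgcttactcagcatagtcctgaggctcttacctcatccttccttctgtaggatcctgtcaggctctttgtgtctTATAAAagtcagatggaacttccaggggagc
Ccl8, chr11:82114935-82115184, forward strand: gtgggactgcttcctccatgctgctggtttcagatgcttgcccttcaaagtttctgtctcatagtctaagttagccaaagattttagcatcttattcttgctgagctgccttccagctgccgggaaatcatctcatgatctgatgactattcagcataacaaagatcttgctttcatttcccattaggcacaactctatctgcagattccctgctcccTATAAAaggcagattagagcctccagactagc
Ccl3, chr11:83649379-83649628, reverse strand: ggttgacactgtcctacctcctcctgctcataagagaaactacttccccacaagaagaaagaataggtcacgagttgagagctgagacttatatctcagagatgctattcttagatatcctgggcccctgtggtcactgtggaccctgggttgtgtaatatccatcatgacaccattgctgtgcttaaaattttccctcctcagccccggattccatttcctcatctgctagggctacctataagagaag
Ccr2, chr9:124101933-124102182, forward strand: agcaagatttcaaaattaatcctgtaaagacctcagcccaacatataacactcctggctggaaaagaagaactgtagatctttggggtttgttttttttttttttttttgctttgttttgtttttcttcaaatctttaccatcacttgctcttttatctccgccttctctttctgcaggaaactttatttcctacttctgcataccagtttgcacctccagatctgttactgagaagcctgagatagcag
TATAAA lay at positions -31 to -26 from the start in Ccl12 and at -32 to -27 in Ccl8. It was present in 2 of the 5 member windows, against 12.4% of all 32851 windows of the same length. Searched on both strands, TGANTCA (AP-1), TTCNNNGAA (STAT), TTGCNNAA (C/EBP) and an NF-kB motif of 10 letters occurred in 0 of the 5 windows, against 6.75%, 7.02%, 9.56% and 4.11% of all windows. In a global alignment the Ccl12 and Ccl8 windows were identical at 161 of 280 columns (57.5%), and the other 9 pairs of these windows at 48.2% to 54.2%. A match is a description of letters, and the lack of one says nothing about any factor.

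The arrays had medians of 5.98 to 6.18 on the deposited log2 scale, where a difference of 1 is a 2-fold difference in signal. Lung tissue markers (8 genes, among them Sftpc and Ager) averaged 12.05 to 12.60, near the top of the measured range of 2.98 to 14.1. The lowest mean was that of the day 3 whole lung array, against 12.50 and 12.35 in the day 3 medial and cardiac lobes. Its endothelial marker mean was also the lowest (9.88, against 10.67 and 10.63). That array held the highest Ccl2, Ccl7, Ccl3 and Ccr2 values of all arrays. Whether its make-up bears on these values was not tested. The day 7 cardiac lobe array had an interquartile range of 3.55, against 3.73 to 3.86 on the other 6 cardiac lobe arrays. The day 56 pneumonectomy whole lung array had 3.39, against 3.51 to 3.76 on the other 6 whole lung arrays. The calls of members and of the other gene lists at days 3 and 7, the early responses of the lobes and Ccr2 at day 56 are also given without both. All comparisons with day 0 share the 3 day 0 arrays, and all comparisons with sham share the 3 sham arrays.

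Across the 7 conditions, 4 of the 8 members differed beyond the spread between regions. These were Ccl2 (adjusted p = 0.00178), Ccl7 (0.00433), Ccl8 (0.00544) and Ccr2 (0.00763) by limma's moderated F test, which called 7.76% of all genes. Ccl12 (adjusted p = 0.0613), Ccl3 (0.128), Cx3cr1 (0.158) and Ccl4 (0.206) did not pass. Ccl2, Ccl7, Ccr2 and Cx3cr1 had their highest value at day 3 in each of the 3 regions, although cardiac lobe Ccl2 was 7.89 at both day 3 and day 7. Ccl8 had its highest value at day 7 and its lowest in sham lungs in each of the 3 regions. The 7 conditions are shown for each member by region in the plot of log2 values by day.

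**Figure D1:**
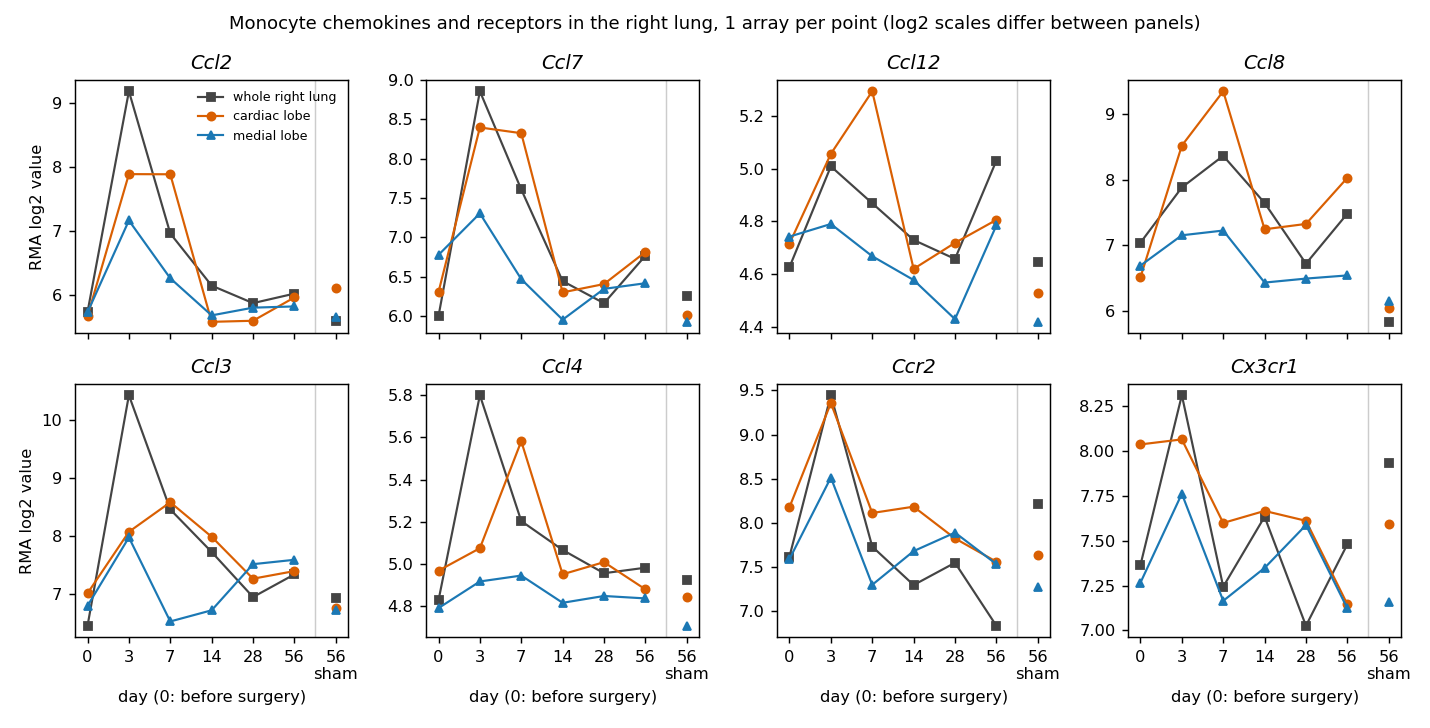
Deposited log2 value (y axis, scales differ between panels) of the 8 measured members by day (x axis), with 1 point per array and 1 line per region; day 0 is before surgery, days 3 to 56 follow pneumonectomy and sham stands apart at the right of each panel. Ccl2, Ccl7, Ccr2 and Cx3cr1 are highest at day 3 in all 3 regions and Ccl8 at day 7, and Ccl12 and Ccl4 stay between 4.42 and 5.80.

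At day 3, the Ccr2 ligands Ccl2 and Ccl7, the macrophage inflammatory protein Ccl3 and the receptor Ccr2 rose over day 0. These were 4 of the 8 members, against 3.97% of all genes called higher at day 3, and 0 members were called lower, against 2.73% of genes. The median difference of the 8 members was 1.21 on the log2 scale, beside 0.01 over all genes. The day 3 values did not overlap those of day 0 for 6 members, Ccl4 and Cx3cr1 being the exceptions. The share of all genes without overlap was not counted, so this count has no comparison with other genes. In whole tissue, more cells that make a transcript and more of it per cell cannot be told apart.

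Ccl2, the main chemoattractant of classical monocytes, had log2 values of 7.17 in the medial lobe, 7.89 in the cardiac lobe and 9.19 in the whole lung at day 3, against 5.73, 5.67 and 5.73 in the same regions at day 0. All 3 day 3 arrays were above all 3 day 0 arrays, and the whole lung was highest. The fitted difference was 2.37 ± 0.36 (log2, SE), a 5.16-fold rise (adjusted p = 0.000838). It passed in all 13 alternative settings in which Ccl2 was tested, with differences of 1.83 to 2.74. Ccl2 averaged 8.08 ± 1.02 at day 3 and 5.71 ± 0.04 at day 0 (SD, n = 3 each), so the regions differed far more at day 3. The day 0 mean lay below the lowest array median (5.98), and whether it was near background is not known. The SE assumes the same spread in all 7 conditions, which these SDs do not show.

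Ccl7, a second Ccr2 ligand that also acts on Ccr1, had 7.31, 8.40 and 8.86 in the medial lobe, cardiac lobe and whole lung at day 3, against 6.78, 6.30 and 6.00 at day 0. The medial lobe was the highest of the day 0 regions and the lowest of the day 3 regions. The difference of 1.83 ± 0.34 was a 3.55-fold rise (adjusted p = 0.00389). With the lobes alone it was 1.31 and no longer passed (adjusted p = 0.188), and with only the 6 arrays compared it had adjusted p = 0.0759.

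Ccl3, made by activated macrophages and other leukocytes, had 7.98, 8.08 and 10.43 at day 3 in the medial lobe, cardiac lobe and whole lung, against 6.80, 7.02 and 6.46 at day 0. The whole lung array stood well above both lobes at day 3. The difference was 2.07 ± 0.52, a 4.21-fold rise (adjusted p = 0.0242). Without the day 3 whole lung array it was 1.29 (adjusted p = 0.146), without the day 0 whole lung 1.74 (0.135) and lacking the day 0 cardiac lobe 2.17 (0.0672). With the lobes alone it was 1.12 (adjusted p = 0.34).

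Ccr2, the receptor, had 8.51, 9.36 and 9.45 at day 3 in the medial lobe, cardiac lobe and whole lung, against 7.59, 8.18 and 7.62 at day 0. Day 3 was higher in each region and the groups did not overlap. The rise was 2.48-fold (log2 1.31 ± 0.27, adjusted p = 0.00695). Without the day 3 whole lung array the difference was 1.08 (adjusted p = 0.0556).

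The other 4 members did not pass at day 3. Ccl8 had 7.16, 8.52 and 7.89 at day 3 in the medial lobe, cardiac lobe and whole lung, against 6.69, 6.52 and 7.04 at day 0. Its difference of 1.10 ± 0.34 missed the threshold (adjusted p = 0.0671) and passed without the day 0 medial lobe or without both arrays that stood apart. Cx3cr1 had 7.76, 8.07 and 8.31 at day 3, against 7.27, 8.04 and 7.36 at day 0, a difference of 0.49 ± 0.20 (adjusted p = 0.177). The cardiac lobe, highest at day 0, was nearly level for Cx3cr1 (a difference of 0.03). Ccl12 and Ccl4 were dim, with 19.6% and 24.5% of genes having a lower mean, and differed by 0.26 ± 0.11 and 0.40 ± 0.15. The file has no detection call, so whether these 2 were above background is not known. Without both arrays that stood apart, 6 members passed at day 3, Ccl12 (adjusted p = 0.0348) and Ccl8 (0.0274) being added, but the share of all genes called at day 3 was then 14.2%, against 6.7% with all arrays.

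At day 7, Ccl8 and Ccl2 were higher than at day 0, and the receptors did not pass. These 2 of 8 members compare with 3.73% of all genes called higher, 0 members and 4.97% of genes were called lower, and the member median was 0.74 beside 0.03 over all genes. Ccl8 had 7.23, 9.35 and 8.37 at day 7 in the medial lobe, cardiac lobe and whole lung, against 6.69, 6.52 and 7.04 at day 0. Its day 7 values did not overlap those of day 0, and the cardiac lobe was highest. The rise was 2.96-fold (log2 1.57 ± 0.34, adjusted p = 0.013).

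Ccl2 had 6.26, 7.89 and 6.96 at day 7 in the medial lobe, cardiac lobe and whole lung, all above the 5.67 to 5.73 of day 0. The rise was 2.51-fold (log2 1.33 ± 0.36, adjusted p = 0.033). Both rises leaned on the cardiac lobe. Without the day 7 cardiac array Ccl8 differed by 1.19 (adjusted p = 0.0769) and Ccl2 by 0.88 (0.199), and 0 members and 2.65% of genes passed, against 8.69% of genes with all arrays. The member count was also 0 without the day 0 cardiac array (2.74% of genes) and without both arrays that stood apart (5.28% of genes). Without the day 0 whole lung array Ccl8 passed and Ccl2 did not (adjusted p = 0.129).

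Ccl7 at day 7 had 6.47 in the medial lobe, below its day 0 value of 6.78, but 8.33 and 7.61 in the cardiac lobe and whole lung, against 6.30 and 6.00 at day 0. Its difference of 1.11 ± 0.34 did not pass (adjusted p = 0.0557). It passed in 2 of the 13 alternative settings in which it was tested, where differences ran from 0.71 to 1.53. Ccl3 showed the same arrangement, with 6.53, 8.59 and 8.46 in the medial lobe, cardiac lobe and whole lung at day 7, against 6.80, 7.02 and 6.46 at day 0 (adjusted p = 0.169). Ccr2 was 7.71 ± 0.41 at day 7 and 7.80 ± 0.33 at day 0 (SD, n = 3 each), and Cx3cr1 was 7.34 ± 0.23 at day 7 and 7.56 ± 0.42 at day 0. Ccl12 and Ccl4 differed by 0.25 ± 0.11 and 0.38 ± 0.15 (adjusted p = 0.147 and 0.112).

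**Figure D2:**
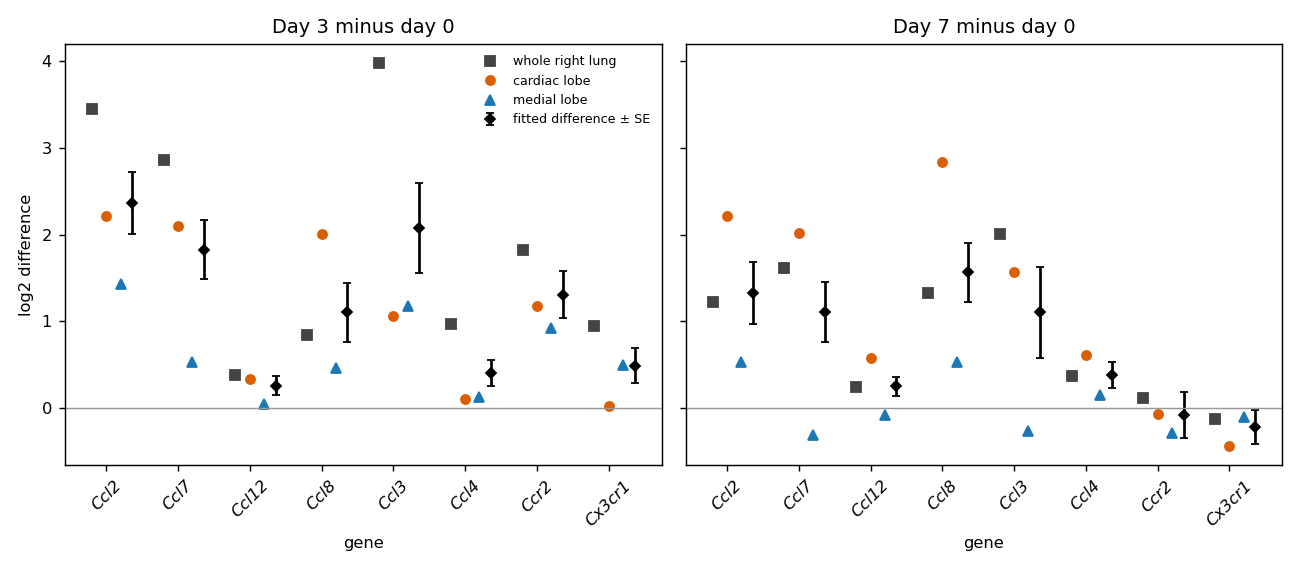
Log2 difference (y axis) of each member (x axis) for day 3 minus day 0 (left) and day 7 minus day 0 (right); squares, circles and triangles are single regions with 1 array per condition, and diamonds with bars are the fitted difference ± SE over the 3 regions. At day 3 every regional point is at or above 0, and at day 7 the medial lobe points of Ccl7, Ccl12 and Ccl3 and 5 of the 6 receptor points lie below 0.

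Both receptors and the ligands Ccl2 and Ccl7 had lower values at day 7 than at day 3 in all 3 regions. In the cardiac lobe, however, Ccl2 (-0.0025) and Ccl7 (-0.073) were nearly level between these days. Ccr2 was 7.30, 8.11 and 7.73 in the medial lobe, cardiac lobe and whole lung at day 7, against 8.51, 9.36 and 9.45 at day 3, with no overlap between days. Its difference of -1.39 ± 0.27 just missed the threshold over all genes (adjusted p = 0.0618), in a comparison that called 0.0652% of genes and 0 of the 8 members by limma's test. At an unadjusted p under 0.05 there were 3 members, and 2075 of all 19938 genes. Ccr2 did pass without the day 3 medial lobe array and without both arrays that stood apart. Cx3cr1 differed by -0.71 ± 0.20 (adjusted p = 0.212), also with no overlap. Ccl2 was lower at day 7 in 3 of 3 regions (-1.04 ± 0.36, adjusted p = 0.329) and Ccl8 higher in 3 of 3 (0.46 ± 0.34, adjusted p = 0.617). Taking Ccl8 minus Ccl2 within each array, day 7 ran from 0.97 to 1.47 and day 3 from -1.30 to 0.63. That contrast was chosen after its values were seen, and its difference of 1.504 had an exact two-sided permutation p of 0.1, the smallest that 3 against 3 arrays allow. The permutation ignored the matching of arrays by region. Values that do not overlap always give this p, so it is no support for the contrast.

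By day 14 the Ccr2 ligands were back near their unoperated values. At day 14, 0 of the 8 members passed against day 0 by limma's test, which called 1.2% of genes, and 0 members had an unadjusted p under 0.05. Ccl2 was 5.68, 5.58 and 6.15 in the medial lobe, cardiac lobe and whole lung at day 14, against 5.73, 5.67 and 5.73 at day 0. Ccl7 was 5.95, 6.30 and 6.44 at day 14 in the same regions, against 6.78, 6.30 and 6.00 at day 0. Between day 14 and day 7, 0 members passed (0.727% of genes did). At an unadjusted p under 0.05 were 4 of the 8 members and 2499 of all 19938 genes. Ccl2 and Ccl7 at day 14 did not overlap day 7 (-1.23 ± 0.36 and -1.24 ± 0.34, adjusted p = 0.146 and 0.125). Ccl8 was lower in 3 of 3 regions (-1.21 ± 0.34, adjusted p = 0.136).

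At day 28, 0 of the 8 members and 0% of genes passed against day 0, and 0 members had an unadjusted p under 0.05. The member median was 0.00, as it was over all genes. Ccl3 was 7.52, 7.27 and 6.95 at day 28 in the medial lobe, cardiac lobe and whole lung, above its day 0 value in each region, by 0.49 ± 0.52 (adjusted p = 0.88).

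At day 56 after pneumonectomy, 0 members passed against day 0 (0.0903% of genes did), with 0 at an unadjusted p under 0.05. Ccr2 was 7.53, 7.56 and 6.84 in the medial lobe, cardiac lobe and whole lung at day 56, against 7.59, 8.18 and 7.62 at day 0, below it in all 3 regions without overlap (-0.49 ± 0.27, adjusted p = 0.386). The lowest of these is one of the arrays that stood apart, and without both the difference was -0.24 ± 0.28 (adjusted p = 0.844). Set against sham lungs of the same day, 0 members passed at day 56 (0.336% of genes did). At an unadjusted p under 0.05 were 2 of the 8 members and 1630 of all 19938 genes. The largest member difference was that of Ccl8, with 6.54, 8.03 and 7.49 in the medial lobe, cardiac lobe and whole lung after pneumonectomy, against 6.15, 6.05 and 5.83 after sham. Ccl8 was higher after pneumonectomy in 3 of 3 regions and the groups did not overlap, but the difference of 1.34 ± 0.34 had adjusted p = 0.167. Ccl12 was also higher in 3 of 3 regions, by 0.34 ± 0.11 (adjusted p = 0.355).

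Between sham lungs at day 56 and day 0, 0 of the 8 members passed by limma's test (0.381% of genes did). At an unadjusted p under 0.05 were 1 member, Ccl8, and 1856 of all 19938 genes. Ccl8 had 6.15, 6.05 and 5.83 in sham lungs in the medial lobe, cardiac lobe and whole lung, against 6.69, 6.52 and 7.04 at day 0 (-0.74 ± 0.34, adjusted p = 0.526). With sham as the control, more members were called. At day 3, 6 of the 8 were called higher (4.46% of genes were) and 0 lower (3.21% of genes were): Ccl2, Ccl7, Ccl12, Ccl8, Ccl3 and Ccr2. Ccl2 was 4.90-fold (adjusted p = 0.000807) and Ccl7 4.36-fold (0.00107) higher at day 3 than in sham lungs, and Ccl8 was 3.59-fold higher (0.00281). The calls of Ccl12 and Ccl3 were lost when any 1 of the sham arrays or the day 3 whole lung was left out, and that of Ccl12 also without the day 3 cardiac lobe.

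At day 7, 3 of the 8 members were higher than in sham lungs (2.37% of genes were) and 0 lower (2.15% of genes were). Ccl8 was 4.94-fold higher (log2 2.31 ± 0.34, adjusted p = 0.00156), and it passed with each of the 6 compared arrays left out in turn but not in a fit of those 6 arrays alone (0.128). Ccl7 (1.40 ± 0.34, adjusted p = 0.0293) and Ccl12 (0.41 ± 0.11, adjusted p = 0.0444) lost their calls without any 1 of the sham arrays or without the day 7 cardiac lobe, which left Ccl8 alone. Ccl2 at day 7 was 2.38-fold higher than in sham lungs and did not pass (adjusted p = 0.0587), although the values did not overlap. It passed without the day 7 medial lobe or the day 7 whole lung. Ccr2 was 7.71 at day 7 and 7.71 in sham lungs.

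The lobes were compared next. Averaged over conditions, 0 members passed between the cardiac and the medial lobe (0.0903% of genes did). At an unadjusted p under 0.05 were 5 of the 8 members and 1879 of all 19938 genes. Ccl8 averaged 7.58 in cardiac and 6.67 in medial lobes, a difference of 0.91 ± 0.22 (adjusted p = 0.173). Cx3cr1 and Ccl4 were higher in the cardiac lobe in 7 of 7 conditions, by 0.33 ± 0.13 and 0.21 ± 0.10 (adjusted p = 0.417 and 0.533). Between the mean of both lobes and the whole lung, 0 members passed, in a comparison that called 29.1% of genes. At an unadjusted p under 0.05 were 0 members and 8463 of all 19938 genes. Without the day 7 cardiac array, Ccl4 passed as lower in the lobes, in a setting that called 40.7% of all genes.

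The early response, defined as the mean of days 3 and 7 minus the mean of day 0 and sham, was larger in the cardiac than in the medial lobe for all members but Cx3cr1. The median difference between lobes was 0.68 for the 8 members and -0.02 over all genes. How many of all genes had a larger cardiac response was not counted. Members with like courses on the same arrays are not separate observations. For Ccl8 it was 2.66 in the cardiac and 0.77 in the medial lobe, and for Ccl7 2.20 and 0.54. Without both arrays that stood apart, which leaves day 3 as the 1 early cardiac array, the cardiac values were 2.24 for Ccl8 and 2.24 for Ccl7, and Ccl4 was no longer larger in the cardiac lobe (difference between lobes -0.012). Tested on region by phase means, the difference between lobes was 1.89 ± 0.56 for Ccl8 (unadjusted p = 0.00388) and 1.67 ± 0.52 for Ccl7 (unadjusted p = 0.00583), each with an adjusted p of 0.964. Without both arrays the differences were 1.47 ± 0.61 and 1.70 ± 0.60 (adjusted p = 0.99 for both). So 0 members passed, as did 0% of genes, and 2 members and 868 of all 19938 genes had an unadjusted p under 0.05. Between the whole lung and the lobes, 0 members and 0% of genes passed, and 1 member and 447 of all 19938 genes had an unadjusted p under 0.05. That member was Ccl3, whose early response was 2.75 in the whole lung, 1.44 in the cardiac lobe and 0.49 in the medial lobe (difference from the mean of both lobes 1.78 ± 0.66, adjusted p = 0.996).

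**Figure D3:**
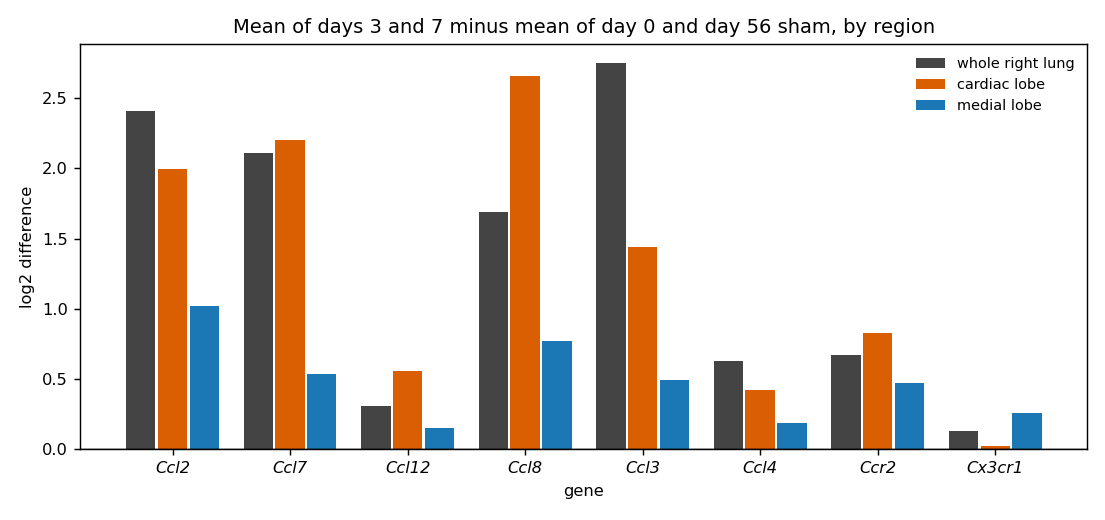
Mean of days 3 and 7 minus mean of day 0 and day 56 sham (log2, y axis) for each member (x axis) in the whole right lung, the cardiac lobe and the medial lobe; each bar rests on 2 early and 2 control arrays, with no error bar. The medial lobe bar is the lowest of the 3 for every member except Cx3cr1, and the cardiac bar of Ccl8 reaches 2.66.

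The genes whose course was most like that of Ccl2, Ccl3, Ccl8, Ccr2 and Cx3cr1 were ranked by Pearson's r over the 21 arrays after subtracting each region's mean. Ccl7, Ccl12 and Ccl4 were not ranked in this way. The arrays share conditions, so these values describe a common course and carry no test. For Ccl2 the nearest were Adam12 (a metalloprotease, r = 0.957), Cd163 (a macrophage scavenger receptor, 0.947), Serpinb2 (a plasminogen activator inhibitor, 0.947), Car6 (a carbonic anhydrase, 0.945) and Folr2 (a folate receptor of macrophages, 0.938). Ccl7 ranked 5 of 19937 genes for Ccl2 (r = 0.944). For Ccl3 they were Cxcl2 (a neutrophil chemokine, r = 0.916), Car6 (0.903), Acod1 (the itaconate enzyme of activated macrophages, 0.895), Tarm1 (a myeloid receptor, 0.893) and Adgre1 (a surface receptor of mouse macrophages, 0.892), and Ccl4 ranked 18.

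For Ccl8 the nearest were the histone genes H2bc18 (r = 0.898) and H4c6 (0.893), Prdx4 (a peroxiredoxin, 0.859), Inhba (an activin subunit, 0.855) and Ccdc34 (0.849). Their day 7 differences from day 0 ran from 0.47 (Ccdc34) to 1.16 (H4c6). These 5 were picked for following Ccl8, which peaked at day 7, over the same arrays, so those values describe the choice and are no test. Among members, Ccl12 ranked 26 for Ccl8 (r = 0.80) and Ccl7 ranked 62 (0.778), while Ccr2 ranked 6312 (0.22). For Ccr2 the nearest were Ms4a6c (0.916), AB124611 (0.910), Abca9 (0.906), Clec4a1 (0.904) and Igsf6 (0.894). Cx3cr1 was nearest to Slfn1 (0.887), AB124611 (0.880), Fyb (0.869), Ptpro (0.867) and Hpse (heparanase, 0.848), and Ccr2 ranked 36 for it (0.781).

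The rest of the CC chemokine system was also measured. Of 13 other measured CC and CX3C chemokines, 1 rose and 2 fell at day 3, and their median was -0.10. For this and the lists that follow, 3.97% of all genes were called higher and 2.73% lower at day 3 against day 0. At day 7 these shares were 3.73% and 4.97%. Against sham they were 4.46% and 3.21% at day 3, and 2.37% and 2.15% at day 7. An unadjusted p under 0.05 against day 0 was met by 3903 of the 19938 genes at day 3 and 5902 at day 7. Without both arrays that stood apart, 14.2% of genes were called at day 3 and 5.28% at day 7. Ccl9, a mouse ligand of Ccr1, averaged 10.47 at day 3 and 8.80 at day 0, a 3.18-fold rise (adjusted p = 0.00366). Ccl5, a chemoattractant of T cells, fell by 0.79 ± 0.21 (adjusted p = 0.0331), and Cx3cl1, the ligand of Cx3cr1, fell by 0.38 ± 0.10 (0.036). At day 7, 2 rose and 1 fell: Ccl24, an eosinophil chemoattractant that acts on Ccr3, rose 7.41-fold (log2 2.89 ± 0.84, adjusted p = 0.0448), Ccl9 rose 2.33-fold (0.0263) and Ccl5 fell by 1.07 ± 0.21 (0.00838). Against sham lungs, 1 rose and 1 fell on each day, Ccl9 (3.23-fold at day 3 and 2.37-fold at day 7) and Cx3cl1 (-0.45 and -0.40). Ccl5 then differed by -0.06 at day 3 (adjusted p = 0.968) and -0.33 at day 7 (0.413), and Ccl24 at day 7 did not pass (2.58 ± 0.84, 0.0992). When both arrays that stood apart were left out, 2 rose and 4 fell at day 3 and 0 rose and 1 fell, Ccl5, at day 7, where Ccl24 was 2.70-fold (0.181) and Ccl9 1.80-fold (0.121).

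Of 13 other measured chemokine receptors, 1 rose and 1 fell at day 3, and 0 rose and 2 fell at day 7. Ccr1, the receptor of Ccl3, Ccl7 and Ccl9, averaged 7.22 at day 3 and 5.89 at day 0, a 2.52-fold rise (adjusted p = 0.00896). Ccr7, which guides lymphocytes and dendritic cells to lymph nodes, fell by 1.05 ± 0.19 at day 3 (adjusted p = 0.00339) and by 0.88 ± 0.19 at day 7 (0.013). Ccrl2, an atypical receptor, fell by 0.69 ± 0.17 at day 7 (0.0218). Set against sham, 2 receptors rose and 0 fell at day 3, Ccr1 (2.34-fold, adjusted p = 0.0132) and Ccr3 (2.21-fold, 0.021), Ccr3 being named after its values were seen. Ccr7 then differed by -0.25 at day 3 (adjusted p = 0.63) and -0.08 at day 7 (0.852). At day 7, 0 of the 13 passed against sham by limma's test, with 2 at an unadjusted p under 0.05. Leaving out both arrays that stood apart, 1 rose and 2 fell at day 3 against day 0, and at day 7 Ccr7 alone fell.

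Of 17 measured genes listed for NF-kB signalling and for the cytokines and adhesion molecules that go with it, 6 rose at day 3 and 0 fell, with a list median of 0.39. The cytokine genes Il1b (2.68-fold, adjusted p = 0.0472) and Tnf (2.03-fold, 0.0145) were among them, with Vcam1, the adhesion molecule that monocytes bind on endothelium (1.65-fold, 0.0175), and Nfkbiz, a nuclear regulator of NF-kB targets (1.54-fold, 0.0136). At day 7, 0 of 17 passed by limma's test, with 8 at an unadjusted p under 0.05. The smallest p-values were those of Myd88 (0.24 ± 0.09, adjusted p = 0.0916) and Nfkbia (-0.41 ± 0.16, adjusted p = 0.104). Between day 7 and day 3, 0 of the 17 passed by limma's test (8 had an unadjusted p under 0.05), so a difference between the days was not shown. Against sham, 3 of the 17 rose at day 3, Csf1 (a macrophage growth factor, 1.66-fold, named after its values were seen), Tnf (1.92-fold) and Vcam1 (1.57-fold). Il1b was then 1.31-fold at day 3 (adjusted p = 0.767) and 0.97-fold at day 7 (0.968), and Nfkbiz 1.35-fold at day 3 (0.0807). With both arrays that stood apart left out, 9 rose at day 3 and 0 passed at day 7 against day 0, with 2 at an unadjusted p under 0.05.

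Markers of the cells that carry or make the members were measured on the same arrays. Of 8 measured classical monocyte markers (of 10 listed), 3 rose at day 3 and 0 fell: Vcan (5.75-fold, adjusted p = 7.95e-05), F13a1 (3.12-fold, 0.000107) and Cd14 (1.86-fold, 0.0268). The mean of the list, which includes these 3, ran from 9.50 to 9.91 over the day 3 arrays, against 8.95 to 9.06 over the day 0 arrays. The list did not move as a set. Its median difference at day 3 was 0.54, and Ms4a4c (-0.30), Mgst1 (-0.25) and Chil3 (-0.07) were lower and Plac8 (0.45) higher, all uncalled. At day 7, Vcan (3.02-fold) and F13a1 (1.66-fold) were still higher and Ms4a4c fell by 0.94 ± 0.20 (adjusted p = 0.0112). With sham as the control, Vcan (4.25-fold), F13a1 (2.73-fold) and Fcgr1 (1.77-fold) rose at day 3 and Vcan (2.24-fold) and Chil3 (1.90-fold) at day 7, Fcgr1 and Chil3 being named after their values were seen. Cd14 at day 3 (adjusted p = 0.0862), F13a1 at day 7 (0.13) and Ms4a4c at day 7 (-0.28, 0.455) did not pass against sham. Of 8 non-classical markers, 1 rose at day 3, Cd300ld (2.42-fold, adjusted p = 0.0217), and the list mean ran from 8.32 to 8.54 at day 3, against 8.30 to 8.59 at day 0. At day 7, 1 fell, Treml4 (by 0.93 ± 0.22, adjusted p = 0.0178). Compared with sham lungs, Cd300ld at day 3 was 2.08-fold and did not pass (0.0527), and Treml4 at day 7 fell by 0.83 ± 0.22 (0.0404). Without both arrays that stood apart, 4 classical markers rose at day 3, Vcan rose (2.26-fold) and Ms4a4c fell at day 7, and F13a1 (1.41-fold, adjusted p = 0.14) and Treml4 (0.0617) did not pass at day 7.

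Macrophage markers rose as well. Of 11 measured, 5 rose at day 3 and 4 at day 7, led by the complement genes C1qc (3.26-fold at day 3), C1qa (3.23-fold) and C1qb (3.18-fold) and by Trem2 (2.97-fold). Their list mean was 10.01 to 10.53 at day 3, against 9.31 to 9.38 at day 0. Alveolar macrophage markers went the other way, with 4 of 8 lower at day 3 and 5 at day 7, among them Cidec (-0.93 ± 0.22 at day 3). Their list mean was 8.31 to 8.88 at day 3, against 8.86 to 9.09 at day 0. With sham as the control, 1 of these 8 was lower at each of the 2 days.

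Of 10 neutrophil markers, 0 passed by limma's test at day 3 (5 had an unadjusted p under 0.05) and 0 at day 7 (0 did), although the list mean was 7.62 to 8.06 at day 3, against 6.97 to 7.10 at day 0. Csf3r and Mmp8 had the smallest p-values at day 3 (adjusted p = 0.12 and 0.123). In sham lungs the list mean was 7.30 to 8.57, and against sham the list median was -0.01 at day 3, with 0 passing and 0 at an unadjusted p under 0.05. At day 7, S100a8 was lower than in sham lungs (-1.69 ± 0.43, adjusted p = 0.0347). T and NK cell markers fell, 7 of 12 at day 3 and 9 at day 7, led by Cd3g (which fell by 1.13 ± 0.17 at day 3 and fell by 1.59 ± 0.17 at day 7). Mesothelial markers rose, 6 of 8 at day 3 and 4 at day 7, led by Wt1 (2.57-fold at day 3). Of 7 endothelial markers, 0 passed on either day, with 1 at day 3 and 2 at day 7 at an unadjusted p under 0.05. With sham as the control, 0 and 1 of the 12 T and NK cell markers fell at days 3 and 7, 3 endothelial markers fell on each day, and 6 and 3 mesothelial and 9 and 4 macrophage markers rose. Without both arrays that stood apart, the counts at days 3 and 7 against day 0 were 6 and 1 macrophage markers higher, 6 and 4 alveolar macrophage markers lower, 8 and 7 T and NK cell markers lower, and 6 and 5 mesothelial markers higher. In the same setting 1 neutrophil marker rose and 1 endothelial marker fell at day 3, and 0 of either passed at day 7, where 1 neutrophil and 0 endothelial markers had an unadjusted p under 0.05. The part of any of these cell types in the members' values was not tested.

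**Figure D4:**
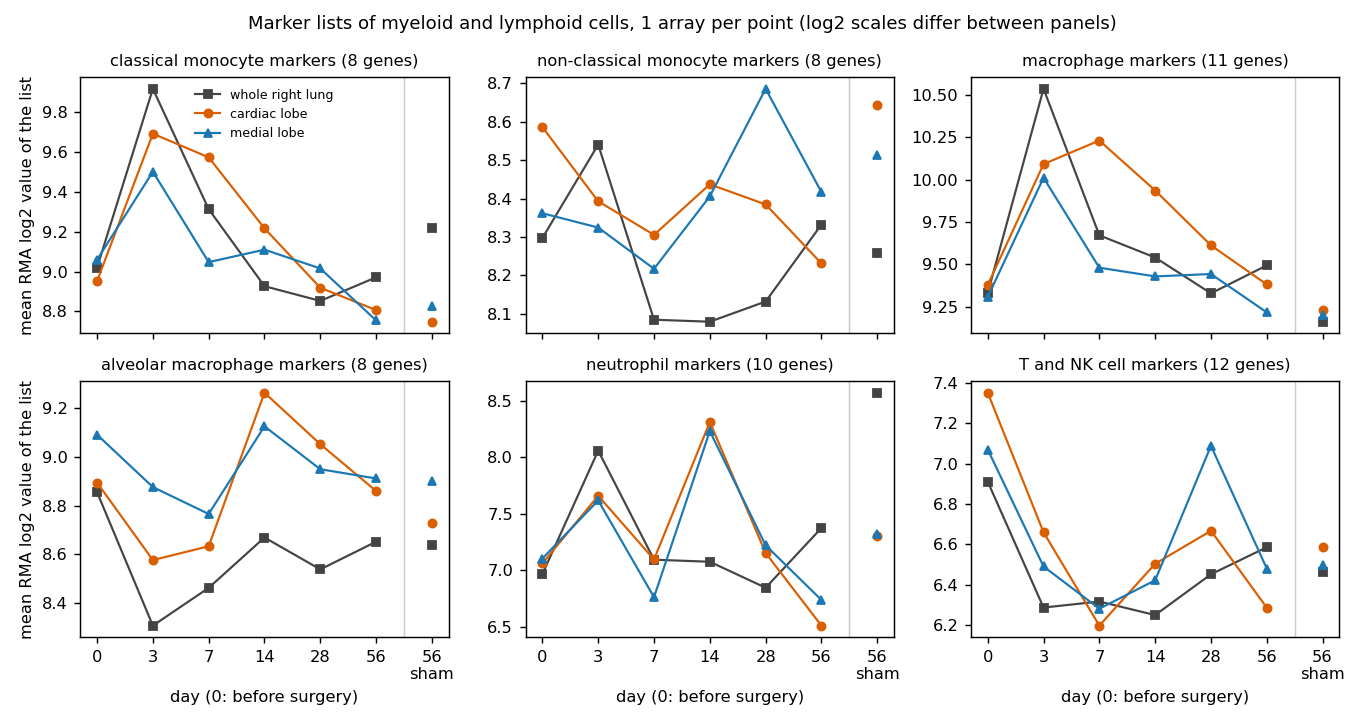
Mean log2 value (y axis, scales differ between panels) of 6 marker lists by day (x axis), with 1 point per array and 1 line per region; sham stands apart at the right. Classical monocyte and macrophage lists are highest at day 3 or day 7 in each region, while the T and NK cell list is lower at days 3 and 7 than at day 0 in all 3 regions.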

How the data were processed

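The values deposited by the authors are log2 RMA signals (background-corrected, normalized between arrays and summarised by probe set), per the submitters' processing notes, which give no version or settings. Labels describe 3' amplification while the annotation is that of a whole-transcript array, which was not settled. Of 35556 probe sets, 21789 had 1 symbol (21698 matched a GRCm38.p6 gene table by gene number), 1621 several and 12146 none. The brightest probe set stood for each of 19938 genes (999 had over 1), and dim genes were kept.

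With limma 3.58.1 (R 4.3.3), condition and region (the replicate number) were fitted as additive terms over the 21 arrays, with empirical Bayes moderation and 12 residual degrees of freedom. A call is an adjusted p (Benjamini-Hochberg, over all genes of a comparison) under 0.05; all adjusted p-values come from limma, and ± is the standard error unless SD is stated. Early responses of regions were compared on means of region and phase (day 0 and sham, days 3 and 7, days 14 to 56). The scripts were tested on simulated data.

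Named genes were all members, up to 4 passing genes per list by size at day 3 and at day 7 (or the 2 smallest p), and 5 genes by likeness for each of Ccl2, Ccl3, Ccl8, Ccr2 and Cx3cr1. Members and lists were chosen with earlier results of these data known. Alternatives were no region term, the mean of probe sets, the brighter genes alone, a trended robust prior, centred arrays, the lobes alone, only the arrays compared, each array left out, and 2 arrays left out together. Same-region arrays deviated together (median r 0.34 over 63 pairs, -0.49 to 0.71), and region was kept in the model. The median between regions was -0.26. It is no separate support, because deviations from a condition's mean cancel out within that condition.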

Additional observations from a re-analysis of the deposited data

How the results depend on the processing

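Over the alternatives, counts of called members were 0 throughout for days 14, 28 and 56 and sham against day 0, day 56 pneumonectomy against sham, day 14 against day 7, the cardiac against the medial lobe and both early responses. The replicate number is the region, and with no replicate block (no region term) day 7 against day 0 had 0 called members (2.13% of genes) and day 7 against sham 1 (1.44%), while Ccl3 at day 3 had adjusted p = 0.0506. Among genes brighter than the median gene, where Ccl2, Ccl7, Ccl12 and Ccl4 are no longer measured, the counts were 2 at day 3 and 1 at day 7 against day 0, 3 and 1 against sham, and 2 in the F test, where 8.32%, 10.8%, 10.8%, 6.74% and 10.7% of genes were called. The lobes alone gave 2 and 0 against day 0, 2 and 1 against sham, and 1 in the F test, with fewer arrays; 1.68% and 7.59% of genes were called against day 0, 3.06% and 3.96% against sham, and 2.73% in the F test. Only the arrays compared gave 2 at day 3 (5.75% of genes) and 0 at day 7 (0.171%) against day 0, and 0 at day 7 against sham (0.436%). Without both arrays that stood apart, day 3 gave 6 against day 0 (14.2% of genes), and day 7 gave 0 against day 0 (5.28%), 1 against sham (3.28%) and 1 (Ccr2, lower) against day 3 (0.326%). Early responses turned sign in that setting, which for these and for the gene lists was chosen after seeing the data, for Ccl4 between the lobes (-0.012) and, between the whole lung and the lobes, for Ccl12 (0.011), Ccl8 (0.18) and Ccr2 (-0.29), all uncalled. With sham as the control, 3 members were higher at both days 3 and 7, against 1 with day 0. The share of all genes called higher on both days was not counted, and both days share their control arrays. Leaving out each array in turn, the counts ran from 2 to 5 at day 3 and 0 to 3 at day 7 against day 0, from 4 to 6 and 1 to 4 against sham, from 0 to 1 for day 7 against day 3, from 3 to 5 in the F test and from 0 to 1 for lobes against whole lung. The shares of all genes called then ran from 3.33% to 6.38% at day 3 and 2.46% to 19.5% at day 7 against day 0. Against sham these shares ran from 3.73% to 8.13% at day 3 and from 1.31% to 8.15% at day 7. They ran from 0% to 0.512% for day 7 against day 3 and from 5.18% to 9.7% in the F test. For lobes against whole lung they ran from 19.4% to 40.7%. Of the members' single differences at days 3 and 7 against day 0 and against sham and at day 56 against sham, the 5 comparisons for which they were followed, 465 kept direction and side of the threshold, 56 lost the threshold, 9 gained it and 10 turned sign, all 10 of them uncalled. Those were Ccr2 at day 7 against sham (-0.0382 with centred arrays, -0.103 without both arrays, and -0.18 to 0.34 with each array left out), Ccr2 at day 56 against sham (0.0907, lobes alone), Cx3cr1 at day 7 against sham (0.0084, lobes alone), Ccr2 at day 7 against day 0 (-0.169 to 0.0505, the highest without the day 7 medial lobe) and Ccl2 at day 56 against sham (-0.0817 to 0.289, the lowest without the sham whole lung). The causes were not tested.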
